A study of Mus musculus with 11 samples.

Results

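The genes described here encode 10 RNA-binding proteins that act on AU-rich elements or take part in the decay of short-lived mRNAs: *Zfp36*, *Zfp36l1*, *Zfp36l2*, *Zc3h12a*, *Rc3h1*, *Elavl1*, *Hnrnpd*, *Khsrp*, *Tia1* and *Tial1*. They were listed by name and function and make up 10 of the 54418 genes in the count table. The set was drawn up around *Zfp36l2*, itself selected on its log2 fold change (log2FC) from wt in earlier results of these data, so its differences from wt are a description, without a test. The other 9 were added for what their products do. Libraries were made from thymocytes, which are T cells in development, of mice of 3 genotypes on a C57BL/6-WEHI background at 8 to 12 weeks of age. The wt group held 4 mice, the Zmat3-/- group 4 mice, and the TKO group 3 mice that lacked *Puma*, *p21* and *Zmat3* together. The deletions were germline, so every cell of a mutant mouse carried them, and no Puma-/-p21-/- mice were compared here. The comparison of TKO with Zmat3-/- mice therefore holds the loss of *Zmat3* constant. Cells came from the whole thymus without sorting, and in such samples fewer cells of one type and less RNA per cell cannot be told apart.

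AU-rich elements are stretches of A and U in the 3' untranslated region (UTR) of mRNAs for cytokines, growth factors and early-response proteins. ZFP36 (tristetraprolin), ZFP36L1 and ZFP36L2 bind them through a pair of CCCH zinc fingers and recruit the CCR4-NOT complex, which shortens the poly(A) tail and starts decay. HuR, the product of *Elavl1*, mostly stabilises the same kind of mRNA, whereas AUF1 (*Hnrnpd*) and KSRP (*Khsrp*) are best known for promoting decay, and TIA-1 and TIAR (*Tial1*) restrain translation. Regnase-1 (*Zc3h12a*) and roquin-1 (*Rc3h1*) act on related mRNAs through stem-loops rather than AU-rich sequence. In thymocytes ZFP36L1 and ZFP36L2 are known for restraining proliferation during early T cell development, and ZMAT3 (WIG-1), the protein missing from both mutants, is itself a zinc-finger protein that binds AU-rich sequence.

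Several of these genes carry in their own mRNA the sequence their products bind. The nonamer TTATTTATT, in capitals, is the core of the site that ZFP36 proteins prefer, written as DNA. It was searched on the transcript strand of the longest 3' UTR of each gene in GENCODE M21, and of the 10 genes *Zfp36*, *Zfp36l1*, *Zfp36l2* and *Rc3h1* held 1 match each, *Elavl1* 8 closely spaced matches, most of them overlapping, and the other 5 none. Each window shows 25 bases around a match, read 5' to 3', with its position on GRCm38; the first of the 8 *Elavl1* matches is shown.
Zfp36, chr7:28376953-28376977, minus strand: tgacgactTTATTTATTgtattaag
Zfp36l1, chr12:80108169-80108193, minus strand: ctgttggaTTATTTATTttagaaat
Zfp36l2, chr17:84184916-84184940, minus strand: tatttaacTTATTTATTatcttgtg
Rc3h1, chr1:160970045-160970069, plus strand: tttactcaTTATTTATTgagatgag
Elavl1, chr8:4285790-4285814, minus strand: catgaaaaTTATTTATTtatttatt
The windows of the 3 *Zfp36* genes differ on both sides of the nonamer. Among all 11675 coding genes with a 3' UTR that entered the test of TKO against wt mice, 8.16% held at least 1 nonamer. A match describes the letters of a transcript and does not show that a protein was bound.

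Libraries held 17669715 to 80207003 counts, and reads of *Zmat3* were still counted in both mutants. It was at 9.88 to 26.8 CPM (counts scaled to library size with TMM factors over all 11 mice) in wt, 5.34 to 6.85 CPM in Zmat3-/- and 7.78 to 8.25 CPM in TKO mice. Reads of *Puma* (*Bbc3*) and *p21* (*Cdkn1a*) also remained in TKO mice, at 12.9 to 15.2 CPM beside 16.8 to 20.1 CPM in wt, and at 2.49 to 3.52 CPM beside 3.53 to 10.4 CPM in wt. The summed level of 12 thymocyte markers was 12781 to 17760 CPM over all mice, and none was at 0. Summed myeloid markers lay between 154 and 348 CPM, thymic stroma markers between 74.9 and 202 CPM B cell markers between 463 and 849 CPM and erythroid markers between 880.1 and 8558 CPM, and no gene of these 5 marker lists passed an adjusted p of 0.05 in any comparison. Ranges of these sums overlapped between genotypes except for B cell markers in the mutants, at 463 to 509 CPM in Zmat3-/- and 516 to 534.2 CPM in TKO mice. The wt group was not uniform. Across genes, wt mice 1 and 2 correlated with wt mice 3 and 4 at r = 0.897 to 0.926, against 0.982 within either pair and 0.972 to 0.990 within the mutant groups. The pairs also differed in *Xist*, the RNA of the inactive X chromosome, which was at 505 and 620 CPM in wt mice 1 and 2 and at 1.701 and 2.54 CPM in wt mice 3 and 4. *Xist* was above 100 CPM in Zmat3-/- mice 1 and 2 and TKO mouse 1 as well, and the labels give no sex.

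Because longer transcripts yield more reads, levels of different genes were set side by side as CPM per kilobase of exon. The divisor joins all annotated exons of a gene, which can exceed the length of any 1 transcript, so the order depends on it. *Tia1*, for example, had the highest wt mean of the 10 in plain CPM, at 306, and was divided by 15750 bases. In wt thymocytes *Zfp36l2* had the highest mean per kilobase at 50.9 ± 1.06 (SD, n = 4), just above *Khsrp* at 46.5 ± 2.01. The wt range of *Zfp36*, 27.8 to 62.4, spanned that of *Zfp36l2*. *Zfp36* at 41.9 ± 17.01, *Zfp36l1* at 41.8 ± 7.46 and *Hnrnpd* at 35.8 ± 8.90 CPM per kilobase followed, and the ranges of *Khsrp* and these 3 genes overlapped from each to the next. *Tial1* at 21.4 ± 3.70, *Tia1* at 19.4 ± 10.1, *Elavl1* at 11.4 ± 1.44, *Rc3h1* at 10.3 ± 3.79 and *Zc3h12a* at 5.996 ± 0.699 CPM per kilobase formed the lower end, where each range again overlapped the next. In both mutants *Zfp36l2* stood well clear of the other 9 genes, with 134 ± 25.9 CPM per kilobase (SD, n = 4) for Zmat3-/- mice and 155 ± 44.8 (SD, n = 3) for TKO mice. There *Zfp36* and *Zfp36l1* came next with overlapping ranges, at 60.0 ± 6.89 and 54.6 ± 1.76 in Zmat3-/- and at 59.2 ± 8.78 and 60.8 ± 7.44 CPM per kilobase in TKO mice. *Zc3h12a* was lowest in all 3 genotypes.

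*Zfp36l2* (ENSMUSG00000045817.8, GRCm38 chromosome 17 from 84183931 to 84187947) was at 179.6, 177, 185 and 178 CPM in the 4 wt mice. It was at 383, 410.3, 567 and 538 CPM in the Zmat3-/- mice and at 372, 588 and 679.5 CPM in the TKO mice. The wt mice lay within a few CPM of each other and below every mutant mouse. The wt mean was 179.8 ± 3.75 CPM (SD, n = 4). That of Zmat3-/- mice was 474.5 ± 91.4 CPM (SD, n = 4), and that of TKO mice 546.5 ± 158 CPM (SD, n = 3). The log2FC was 1.40 (standard error 0.150) in Zmat3-/- against wt mice and 1.55 (standard error 0.191) in TKO against wt mice. In the same order it was 1.18 and 1.09 with the mice of high *Xist* alone, and 1.58 and 1.71 with those of low *Xist*. Both comparisons share the wt mice. Within the mutants *Zfp36l2* was higher in the mice with low *Xist*, by 1.39 times in Zmat3-/- and 1.71 times in TKO mice, while in wt mice that ratio was 1.02.

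*Zfp36l1* (chromosome 12 from 80107754 to 80113013) was at 95.9, 121, 135 and 148 CPM in wt mice, at 165, 162, 157 and 169 CPM in Zmat3-/- mice and at 159, 184 and 203 CPM in TKO mice. All mutant mice lay above all wt mice, the nearest wt mouse by a small margin. Its log2FC was 0.39 (standard error 0.144) in Zmat3-/- and 0.49 (standard error 0.177) in TKO against wt mice, with adjusted p = 0.241 and 0.426 from edgeR. Exons of *Zfp36l1* overlap those of *Gm26669* on the other strand, which share 53.2% of its words of 31 bases, and the library kit does not mark strand, so reads from the pair cannot be told apart.

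*Zfp36* (chromosome 7 from 28376784 to 28380253), the early-response member of the family, was at 216, 172, 96.5 and 97.2 CPM in wt mice. It was at 222, 235, 186 and 189.7 CPM in Zmat3-/- mice and at 204, 176 and 237 CPM in TKO mice. The mutants reached the level of wt mice 1 and 2, and wt mice 3 and 4 lay far below both. The log2FC was 0.53 (standard error 0.259) in Zmat3-/- and 0.46 (standard error 0.294) in TKO against wt mice, with adjusted p = 0.358 and 0.607 from edgeR. In Zmat3-/- against wt mice it was 0.93 among mice with low *Xist* and 0.26 among those with high *Xist*. That split was chosen after the wt mice had been seen to differ, so both values restate the difference between the wt pairs and are given without a test.

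**Figure D1:**
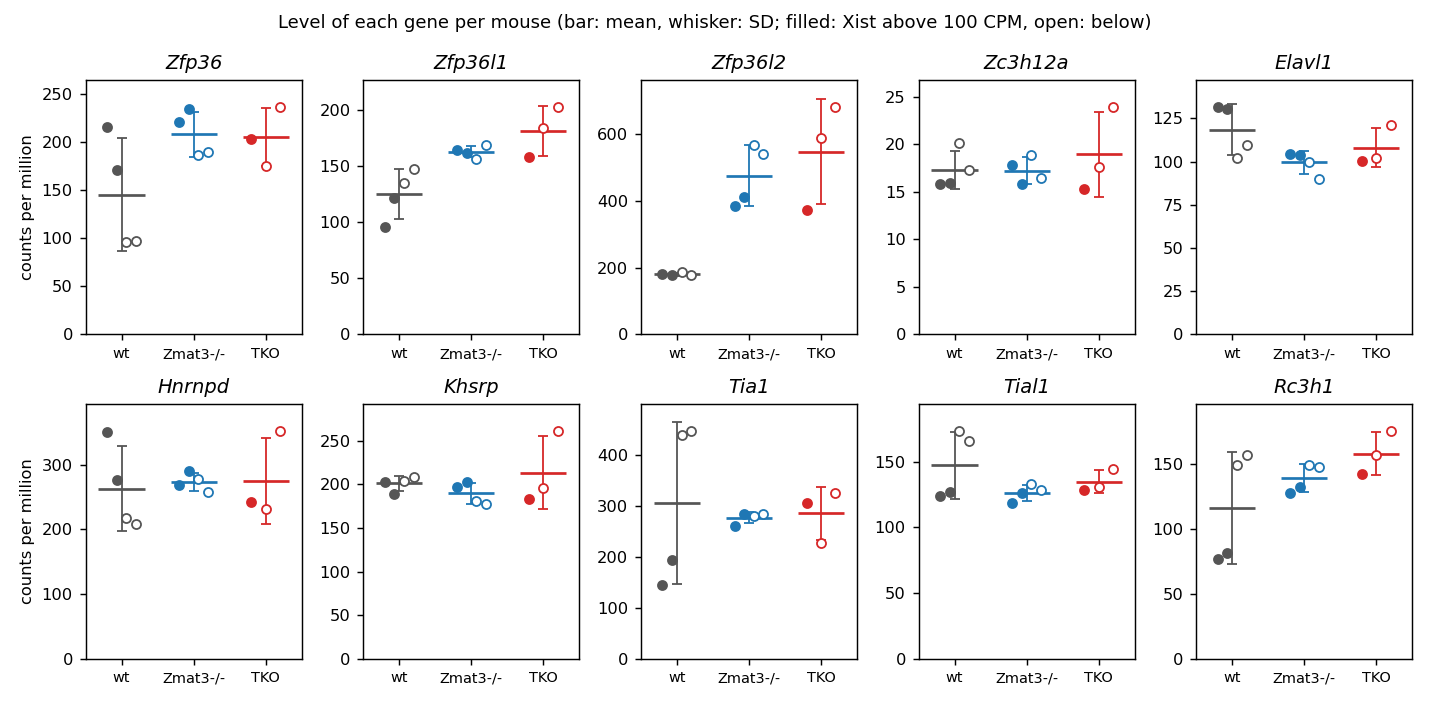
Level of each of the 10 genes in CPM for every mouse, by genotype; bars are means, whiskers SD, filled points mice with Xist above 100 CPM and open points mice below. The 4 wt mice are nearly level for Zfp36l2, at 177 to 185 CPM, and all mutant mice lie above them, whereas wt mice fall into 2 pairs for Zfp36, Tia1 and Rc3h1.

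The genes of stem-loop decay gave lower or less even values. *Zc3h12a* was at 15.8, 15.9, 20.1 and 17.3 CPM in wt mice and at 15.8 to 18.9 CPM in Zmat3-/- and 15.3 to 23.9 CPM in TKO mice. The 3 ranges overlapped, and the log2FC was 0.00 (95% interval −0.28 to 0.28) in Zmat3-/- and 0.08 (−0.31 to 0.46) in TKO against wt mice. *Rc3h1* was at 76.5 and 81.8 CPM in wt mice 1 and 2 and at 149 and 157 CPM in wt mice 3 and 4. The Zmat3-/- mice, at 128 to 149 CPM, and the TKO mice, at 142 to 175 CPM, were near the upper wt pair. Its log2FC was 0.26 (standard error 0.256) in Zmat3-/- and 0.39 (standard error 0.289) in TKO against wt mice, with adjusted p = 0.634 and 0.639 from edgeR.

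The stabiliser *Elavl1* went the other way in mean. It was at 131.5, 130.6, 102 and 109 CPM in wt mice, at 105, 104, 99.7 and 89.8 CPM in Zmat3-/- mice and at 100.5, 102 and 121 CPM in TKO mice. The lower wt pair overlapped the mutants, and the log2FC was −0.24 (95% interval −0.49 to −0.00) in Zmat3-/- and −0.18 (−0.48 to 0.12) in TKO against wt mice, with adjusted p = 0.309 and 0.639 from edgeR. The decay factor *Khsrp* varied little among wt mice and more among TKO mice, at 188 to 209 CPM in wt, 177 to 203 CPM in Zmat3-/- and 183 to 260.5 CPM in TKO mice, and its log2FC from wt was −0.08 (95% interval −0.29 to 0.13) and 0.03 (−0.27 to 0.34). *Hnrnpd*, at 350.5, 276, 218 and 208 CPM in wt mice, had ranges of 258 to 290.5 CPM in Zmat3-/- and 232 to 352 CPM in TKO mice, which overlapped those of wt.

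*Tia1*, a translational silencer of stress granules, was at 145 and 194 CPM in wt mice 1 and 2 and at 438 and 446 CPM in wt mice 3 and 4. The Zmat3-/- mice, at 259.9 to 285 CPM, and the TKO mice, at 227 to 325 CPM, all lay between the wt pairs. The log2FC was −0.15 (95% interval −0.96 to 0.67) in Zmat3-/- and −0.16 (−1.12 to 0.81) in TKO against wt mice, the widest intervals of the 10 genes. Against the wt mice of like *Xist*, the log2FC of *Tia1* in Zmat3-/- mice was 0.70 with high and −0.67 with low *Xist*, which restates the gap between the wt pairs and is given without a test. Its paralog *Tial1* was at 124 to 127 CPM in wt mice 1 and 2 and at 166 to 173 CPM in wt mice 3 and 4, with 119 to 133 CPM in Zmat3-/- and 128 to 145 CPM in TKO mice.

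All 10 genes passed the filter on low counts in each comparison. A gene was called at the study's thresholds, an adjusted p under 0.05 and an absolute log2FC above 1.5. Among 13260 genes tested, 0.241% were called in TKO against wt mice, and of the 10 genes 1 was, *Zfp36l2*, which had been known beforehand and from which nothing is read. DESeq2 called the same gene, beside 0.777% of all genes, and an unadjusted p under 0.05 in edgeR was reached by 2 of the 10 and 10.3% of all genes. At any fold with an adjusted p under 0.05 the share was 0.294% of genes and again that 1 gene. Without any one of wt mice 2, 3 and 4 and TKO mice 2 and 3, none of the 10 was called in TKO against wt mice at either threshold. In Zmat3-/- against wt mice 0.319% of 13494 genes were called and none of the 10. DESeq2 called none of them either, beside 0.912% of genes, and 3 of the 10 had an unadjusted p under 0.05 in edgeR, beside 16.1% of genes. At any fold the share was 0.763% of genes and 1 of the 10, *Zfp36l2*, which was not called with the replicate block. Leaving *Zfp36l2* aside, adjusted p-values of the other 9 genes from edgeR ran from 0.426 to 0.987 in TKO against wt and from 0.241 to 0.996 in Zmat3-/- against wt mice. With 1 surrogate variable in the fit, 17.9% of all genes and 4 of the 10 passed an adjusted p of 0.05 in TKO against wt mice, adding *Zfp36*, *Zfp36l1* and *Rc3h1*, and 37.8% of all genes and 6 of the 10 did in Zmat3-/- against wt mice, adding these 3, *Elavl1* and *Tial1* but with *Elavl1* and *Tial1* lower.

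Every mutant mouse lay above every wt mouse in 2 of the 10 genes, *Zfp36l1* and *Zfp36l2*, in either comparison with wt. That held for 6.95% of all tested genes in TKO against wt and for 7.31% in Zmat3-/- against wt mice. The median log2FC of the 10 genes was 0.06 in TKO against wt mice, beside −0.04 over all genes tested, and 0.03 in Zmat3-/- against wt mice, beside −0.03.

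**Figure D2:**
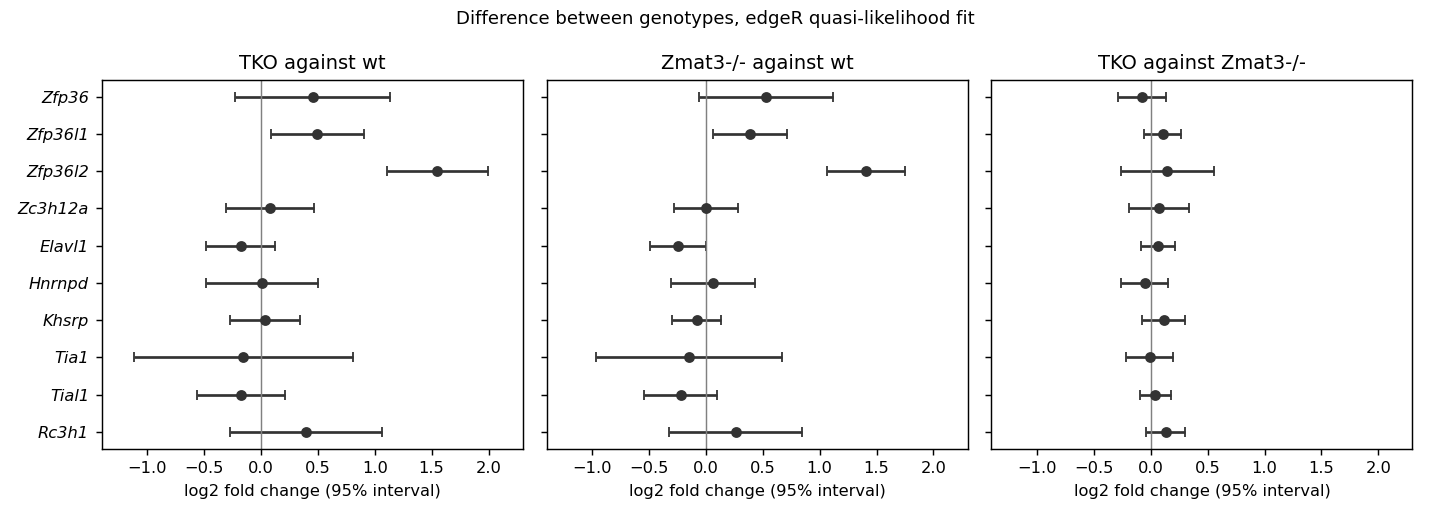
Log2FC of the 10 genes with 95% intervals from edgeR in TKO against wt, Zmat3-/- against wt and TKO against Zmat3-/- mice. Zfp36l2 lies at 1.55 and 1.40 against wt, the intervals of Zfp36l1 lie just above 0, and all 10 intervals of TKO against Zmat3-/- mice include 0.

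Between TKO and Zmat3-/- mice no difference of the 10 genes was detectable. The study's thresholds called 0.122% of 13124 genes in this comparison and none of the 10. At any fold the share was 0.221%, again with none of the 10. None had an unadjusted p under 0.05 in edgeR, beside 4.5% of genes, and DESeq2 called none, beside 0.145% of genes. The log2FC ran from −0.07 for *Zfp36* to 0.14 for *Zfp36l2* (standard error 0.184), with adjusted p = 0.983 to 0.998 from edgeR. The 95% intervals reached from −0.29 to 0.55 at most, so that larger differences lay outside them. For *Zfp36l2* the interval was −0.27 to 0.55, and for *Zfp36l1* −0.06 to 0.26. No gene of the 10 had ranges that did not overlap, beside 4.92% of genes tested.

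The 2 wt pairs differed along the length of genes. With genes in 5 equal groups by exon bases, the log2 ratio of wt mice 3 and 4 to wt mice 1 and 2 had a median of −0.66 in the shortest group and of 0.53 in the longest. The same ratio of low to high *Xist* ran only from −0.05 to 0.06 in Zmat3-/- and from −0.01 to 0.13 in TKO mice. *Tia1* with 15750 exon bases and *Rc3h1* with 11308, the longest of the 10 genes, had wt ratios of 1.38 and 0.95, above the median of long genes. *Elavl1*, also long with 10363 bases, went the other way at −0.31, as did *Hnrnpd* at −0.56. *Zfp36* with 3470 bases was at −1 and *Zfp36l2*, of nearly equal length with 3530 bases, at 0.02. The median log2FC from wt also rose with length, from −0.24 in the shortest group to 0.17 in the longest in Zmat3-/- mice and from −0.30 to 0.19 in TKO mice. What part of the differences from wt goes with this was not tested.

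**Figure D3:**
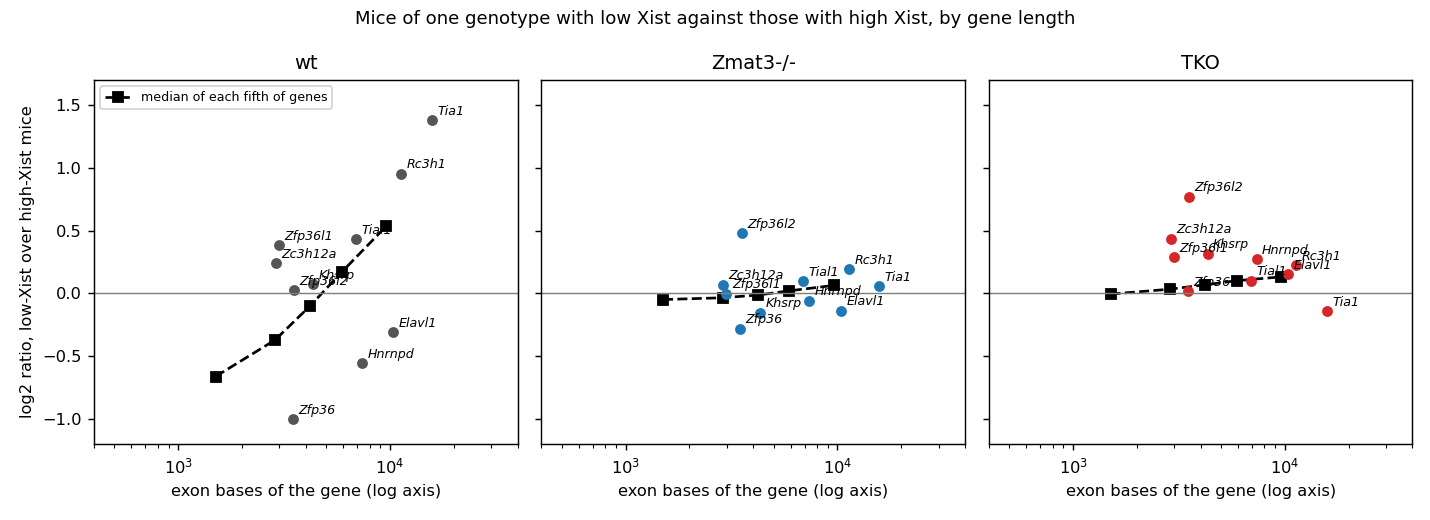
Log2 ratio of mice with low Xist to mice with high Xist within each genotype, against exon bases on a log axis; squares are medians of 5 equal groups of genes by length and points the 10 genes. In wt the medians climb from -0.66 to 0.53 while Zfp36l2 sits near 0, and in the mutants the medians stay near 0 while Zfp36l2 is at 0.48 and 0.77.

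The wider decay pathway was read from lists of genes named for their role. In these lists a gene is said to have risen or fallen at an adjusted p under 0.05, at any fold. Of 15 genes of the CCR4-NOT deadenylase and its adaptors, 2 rose in both mutants against wt and none fell, beside 0.294% of all genes in either direction in TKO and 0.763% in Zmat3-/- mice. They were *Tob1* and *Tob2*, antiproliferative proteins that link poly(A)-binding protein to the deadenylase. *Tob1* was at 18.2 to 22.2 CPM in wt, 45.1 to 48.2 CPM in Zmat3-/- and 48.5 to 58.6 CPM in TKO mice, with a log2FC of 1.18 and 1.33 (adjusted p = 0.00124 and 0.00405 from edgeR). *Tob2* was at 65.7 to 81.2 CPM in wt, 191 to 235 CPM in Zmat3-/- and 202 to 288 CPM in TKO mice, with a log2FC of 1.53 and 1.62 (adjusted p = 0.00162 and 0.00405 from edgeR). Both kept an adjusted p under 0.05 in every fit that left out 1 mouse, and of the pair *Tob2* alone exceeded the study's fold threshold. With the replicate block in TKO against wt mice the adjusted p was 0.0753 for *Tob1* and 0.0428 for *Tob2* from edgeR. The other 13 did not pass the test, and the scaffold of the complex, *Cnot1*, was at 391 CPM in wt, 524 CPM in Zmat3-/- and 568 CPM in TKO mice on average (adjusted p = 0.562 and 0.656 from edgeR).

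None of 19 genes of deadenylation and decapping passed the test against wt, 15 of the exosome, 10 kinases and other regulators of these proteins, or the 14 and 15 tested of 18 further RNA-binding proteins of this kind. In these 4 lists the median log2FC was −0.06, −0.33, −0.00 and 0.06 in TKO against wt mice and 0.05, −0.33, 0.04 and 0.01 in Zmat3-/- against wt mice. Those with the highest mean CPM over all mice, not scaled to length, were *Ddx6* and *Pan3*, *Skiv2l* and *Exosc10*, *Akt1* and *Ikbkb*, and *Ncl* and *Hnrnpab*, in the same order. The helicase *Ddx6*, for example, had means of 514, 664 and 680.2 CPM in wt, Zmat3-/- and TKO mice (adjusted p = 0.409 and 0.621 from edgeR).

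Known targets of these proteins were read next, from a list of 38 mRNAs such as cytokines and early-response genes. Of 28 that could be tested in TKO against wt mice 3 rose and none fell, and the same 3 of 29 rose in Zmat3-/- against wt mice: *Tnfaip3*, an inhibitor of NF-kB signalling, *Dusp1*, a MAP kinase phosphatase that restrains the kinase controlling ZFP36, and *Plk2*, a polo-like kinase and TRP53 target. Over all genes 0.294% and 0.763% passed in either direction. The study had already named *Dusp1* and *Plk2* as differing between these TKO and wt mice. Both comparisons share the wt mice, so the values of these genes and their part in the counts are a description. The median log2FC of the list was 0.28 and 0.31, beside −0.04 and −0.03 over all genes. Windows around the nonamer are shown for *Plk2* and, in 2 places, *Dusp1*, and not for every gene of the list that holds it.
Dusp1, first match, chr17:26506161-26506185, minus strand: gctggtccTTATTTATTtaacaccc
Dusp1, second match, chr17:26505872-26505896, minus strand: ttttacctTTATTTATTtttgtgta
Plk2, chr13:110400736-110400760, plus strand: taaactttTTATTTATTacagcccc
*Tnfaip3* was at 104, 125, 139.9 and 138 CPM in wt mice, at 421 to 451 CPM in Zmat3-/- mice and at 439 to 602 CPM in TKO mice. Its log2FC was 1.80 and 1.95 (adjusted p = 0.000752 and 0.00275 from edgeR), and its adjusted p stayed under 0.05 in every fit that left out 1 mouse. *Dusp1* rose from 14.3 to 33.3 CPM in wt to 105 to 123 CPM in Zmat3-/- and 107 to 154 CPM in TKO mice (log2FC 2.28 and 2.37, adjusted p = 0.0148 and 0.0350 from edgeR). *Plk2* was at 0.539 to 1.56 CPM in wt, 5.55 to 7.72 CPM in Zmat3-/- and 6.56 to 8.05 CPM in TKO mice (log2FC 2.70 and 2.84, adjusted p = 0.0191 and 0.0479 from edgeR). In TKO against wt mice *Plk2* no longer had an adjusted p under 0.05 with any 1 of the 7 mice left out, nor did *Dusp1* except without wt mouse 1. In Zmat3-/- against wt mice both were above 0.05 without any one of the Zmat3-/- mice, and also with the replicate block (adjusted p = 0.0613 for *Dusp1* and 0.135 for *Plk2* from edgeR). Classical cytokine targets were low. *Tnf*, which entered the test and did not pass, was at 2.31 to 7.02 CPM over all mice, *Csf2* was at 0.323 CPM or less, and *Il3* was at 0 in all mice.

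Early-response genes, several of which are themselves such targets, were read in the same way. The summed level of 18 of them was 855 to 1256 CPM in wt, 1703 to 2098 CPM in Zmat3-/- and 1742 to 2103 CPM in TKO mice, and 6 of the 18 rose and none fell in either mutant against wt, beside 0.294% of all genes in TKO and 0.763% in Zmat3-/- mice. The other 12 did not pass the test. Among these, *Junb*, *Fos* and *Jun* added most to the difference in the sum, with means of 116.5, 19.8 and 19.7 CPM in wt, 569.6, 184 and 113 CPM in Zmat3-/- and 554, 184 and 103 CPM in TKO mice (adjusted p = 0.121 to 0.132 in Zmat3-/- and 0.349 to 0.399 in TKO against wt mice from edgeR). The wt pairs differed here too: wt mice 1 and 2 had sums of 1254 and 1256 CPM and wt mice 3 and 4 of 881 and 855 CPM, with *Junb* at 201 and 31.7, *Fos* at 36.8 and 2.89 and *Jun* at 34.5 and 4.76 CPM on average in the first and second pair. Also among the 12, *Egr1*, *Egr2*, *Egr3* and *Btg2* had a log2FC below 0 in both comparisons, for *Egr2* −0.58 in Zmat3-/- and −0.67 in TKO against wt mice (adjusted p = 0.0856 and 0.241 from edgeR). *Fosb* (log2FC 3.73 in Zmat3-/- and 3.84 in TKO against wt mice, adjusted p = 0.00226 and 0.0146 from edgeR), *Klf4* (2.89 and 3.05, adjusted p = 0.000752 and 0.00631), *Dusp1* and *Nr4a2* (2.26 and 2.21, adjusted p = 0.00139 and 0.00859) were among the 6 that rose, and with the replicate block *Nr4a2* had an adjusted p of 0.0511 in Zmat3-/- against wt mice. Without TKO mouse 1, *Fosb*, *Klf4*, *Dusp1* and *Nr4a2* did not pass the test in TKO against wt mice. The study had named *Klf4*, *Dusp1*, *Fos* and *Jun* as differing between these TKO and wt mice, so their values here are a description. The summed level of 8 heat shock genes was 1582 to 2870 CPM in wt and 2495 to 3778 CPM in the mutants, and none of the 8 passed the test. Wt mice 1 and 2, at 2710.2 and 2870 CPM, lay within the range of the mutants, and only wt mice 3 and 4, at 1582 and 1635 CPM, lay below it. Within wt mice *Fos* ranged from 2.78 to 40.2 CPM, while *Zfp36l2* ranged from 177 to 185 CPM. The part of these genes in the level of *Zfp36l2* was not tested.

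**Figure D4:**
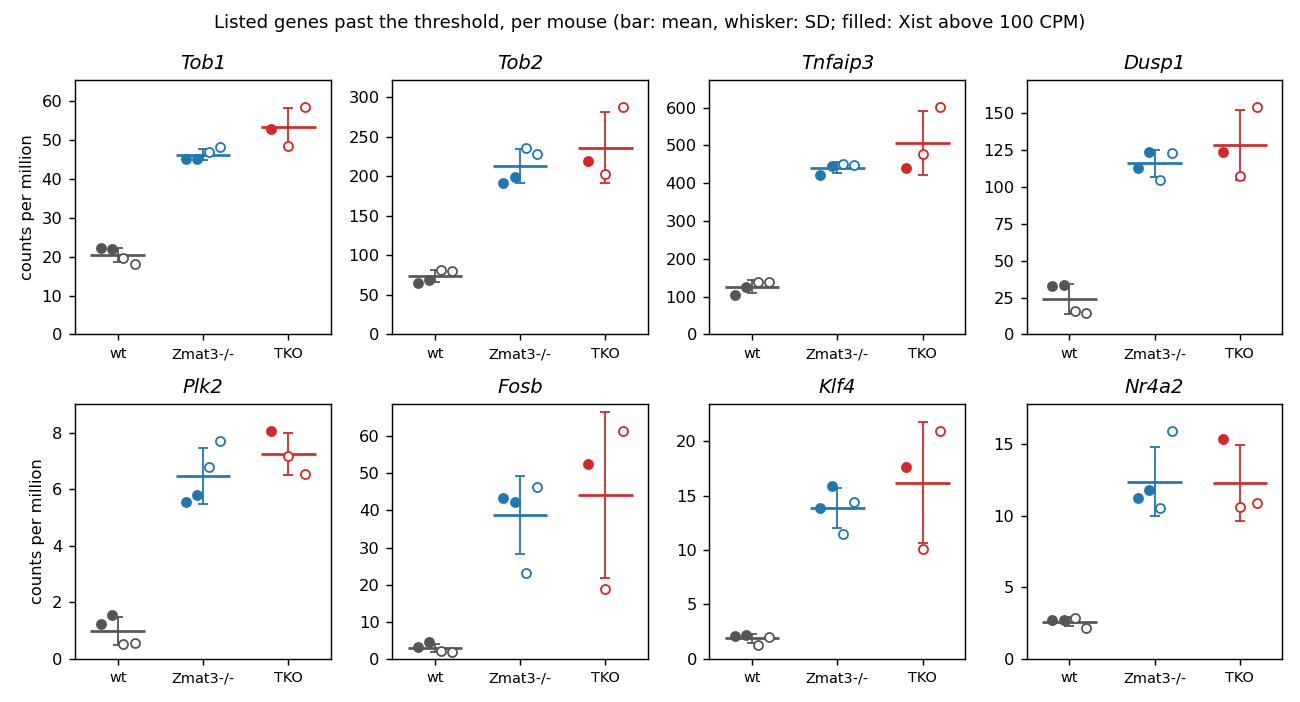
CPM per mouse of 8 listed genes with an adjusted p under 0.05 in both comparisons with wt; bars are means, whiskers SD, filled points mice with Xist above 100 CPM and open points mice below. In all 8 panels each mutant mouse lies above each wt mouse, with Tob1 and Tnfaip3 evenly raised and Fosb and Klf4 widely spread among TKO mice.

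Transcripts with the nonamer were then set beside all coding genes, with no test. In TKO against wt mice the 953 genes with at least 1 nonamer had a median log2FC of 0.09, beside −0.03 over all 11675, and 59.2% of them were above 0, beside 46.4%. In Zmat3-/- against wt mice the medians were 0.07 for 970 genes and −0.02 for all 11844. The difference between these medians, 0.12 in TKO and 0.09 in Zmat3-/- against wt mice, depended on the wt mice: without wt mouse 1 it was 0.0404 and 0.0139, without wt mouse 2 0.0728 and 0.0423, without wt mouse 3 0.19 and 0.155, and without wt mouse 4 0.194 and 0.151. With high *Xist* it was 0.29 and 0.267, and with low *Xist* it turned to −0.0783 and −0.0591. Genes with the nonamer have longer 3' UTRs, with a median of 2308 bases beside 1183 over all genes in the first comparison. Split into 4 equal groups by 3' UTR length, genes with and without the nonamer were closest in the group with the longest 3' UTRs, where the medians were 0.17 with and 0.15 without it in TKO against wt mice and 0.13 for both classes in Zmat3-/- against wt mice. In the shortest group they were −0.15 with and −0.24 without it in TKO against wt mice, where 52 genes held it, and −0.0904 with and −0.19 without it in Zmat3-/- against wt mice, where 54 did. Between TKO and Zmat3-/- mice the medians were 0.02 for 964 genes with the nonamer and −0.01 over all. Of genes with it, 5 rose and 1 fell in TKO against wt mice, those that rose including *Zfp36l2*, *Plk2* and *Dusp1*, beside 23 and 2 of all 11675. That is 0.63% of genes with the nonamer and 0.214% of all. In Zmat3-/- against wt mice 8 rose and 2 fell, beside 44 and 23 of all 11844, or 1.03% and 0.566%. *Zfp36l2*, *Plk2* and *Dusp1* were among those that rose here too. The study had named them in TKO against wt mice, and the wt mice are shared, so nothing is read from these shares.

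**Figure D5:**
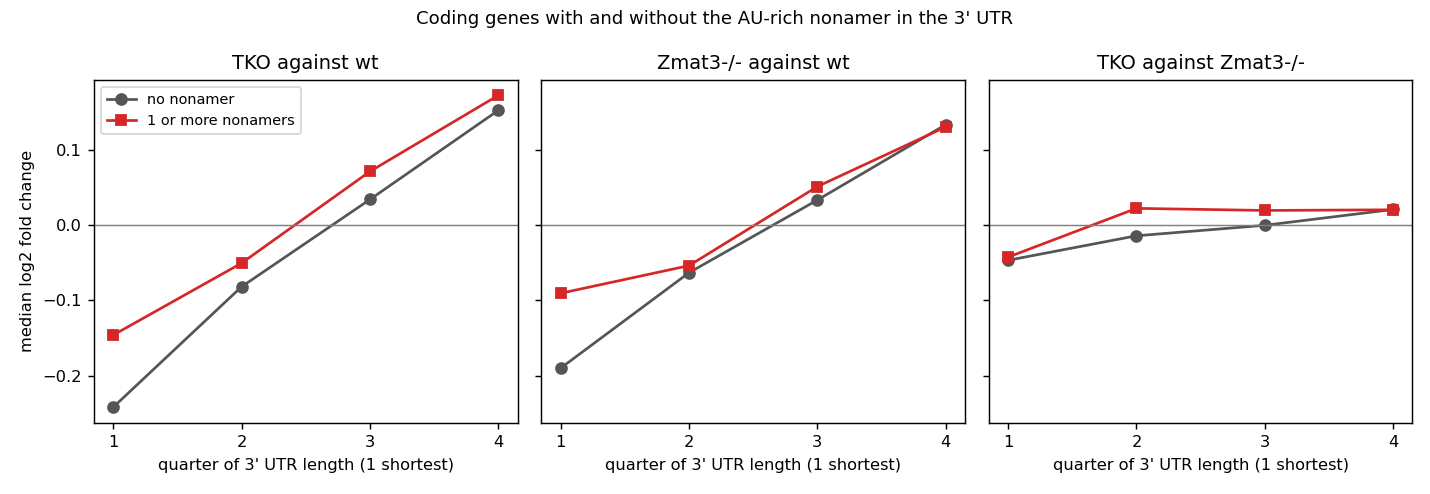
Median log2FC of coding genes with and without the nonamer in the 3' UTR, in 4 equal groups by 3' UTR length, in the 3 comparisons. Both lines climb from the shortest to the longest group against wt, to 0.17 and 0.15 in TKO mice, and both stay within 0.05 of 0 between the mutants.

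Over the 11 mice the genes whose log2 CPM followed *Zfp36l2* most closely, among 13628 tested in any comparison, were *Eif4g2* (Pearson's r = 0.974), *Ube2d3* (0.967) and *Zfp68* (0.965). The translation factor *Eif4g2* was at 967 to 1081 CPM in wt and 1418 to 1736 CPM in mutant mice. *Zfp36* was followed by *Dazap2* (0.968), *Hsp90ab1* (0.960) and *Sertad1* (0.959), each of which had a lower minimum in wt than in the mutants. *Zfp36l1* was followed by *Arcn1* (0.981), *Sort1* (0.978) and *Vgll4* (0.975). Among the 10 genes themselves, r was 0.831 between *Zfp36l2* and *Zfp36l1*, 0.580 between *Zfp36l2* and *Zfp36* and 0.208 between *Zfp36l1* and *Zfp36*. These values are a description: the mice share 3 genotypes, and the wt pairs enter each of them.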

How the data were processed

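The authors used Salmon within nf-core/rnaseq, with GRCm38.p6 and GENCODE vM25, and deposited expected counts per gene, 1 column per mouse, not normalized and in whole numbers. TruSeq libraries were made from total RNA of thymocytes. Groups and replicate numbers follow the labels, which do not say whether mice were littermates.

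Each pair of genotypes was fitted in R 4.3.3 by edgeR 4.0.16, with limma 3.58.1: TMM, the two-sided quasi-likelihood F-test and Benjamini-Hochberg adjustment over all genes tested. The filter on low counts asked for 20 or more, after scaling to the shallowest library, in a number of mice equal to the smaller group. Set aside, by classes the study names, were 1628 genes: *Xist*, those of ribosomal RNA, those on chromosome Y, and immunoglobulin genes that code for no protein. Standard errors were taken as the absolute log2FC divided by the root of F. The study adjusted for sex, which the labels do not give, and for surrogate variables. Alternatives tried here were DESeq2 1.42.0, 1 surrogate variable (sva 3.50.0), the level of *Xist* as a covariate, no filter, 1 fit of all genotypes, the replicate block and each mouse left out.

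Of 54418 genes, 53309 matched GENCODE M21 by identifier, 787 after dropping the version and 322 did not; M21 gave positions, exon lengths and 3' UTRs on GRCm38 and is not the annotation of the counts. Sequence shared with other genes was counted in words of 31 bases: *Zfp36l2* shared 2.2%, *Zfp36* 6.57%, *Khsrp* 7.67%, *Hnrnpd* 5.62% and *Tia1* 3.67%.

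The 10 genes, the lists and the genes named from them were chosen with earlier results of these data known. Named were the 10 genes, the targeted genes, up to 4 genes per list, direction and comparison with an adjusted p under 0.05, where none passed the 2 of highest level, and the 3 genes most like each *Zfp36* gene. *Fos*, *Jun*, *Junb*, *Egr1*, *Egr2*, *Egr3*, *Btg2*, *Cnot1*, *Tnf*, *Il3* and *Csf2* were named after their values were seen. A check of whether replicate numbers pair the mice gave correlations of deviations from the group means of 0.128 to 0.337 over the 4 pairs of Zmat3-/- and wt mice, so the block is given beside what it changes there. Mice of different number but like *Xist* correlated at 0.158 to 0.377 and those of unlike *Xist* at −0.382 to −0.155, so that the numbers and the split by *Xist* cannot be told apart. At 3 counts the libraries reach 0.0403 to 0.167 CPM, which covers counting error only. The p-values set the genotype difference against the spread between these mice and take the wt mice as alike, although they fell into pairs. The fit was tested on simulated data. The sequence of 1 further window is not reported here.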

Additional observations from a re-analysis of the deposited data

Results flagged for a closer look

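No mouse stood outside its group by Dixon's test in any of the 20 groups of 4 mice tested, where chance flags about 1 group in 20. The test looks for 1 mouse apart from the rest, so it could not flag wt mice that fall into pairs. The smaller TKO group was not tested. Several of the 10 genes moved one way in all mice with high *Xist* and the other way in all mice with low *Xist*; none of these differences was tested, and there is only 1 TKO mouse with high *Xist*. As log2 ratios of group means, first with high and then with low *Xist*, *Tia1* was at 0.68 and −0.65 in Zmat3-/- against wt mice and at 0.85 and −0.68 in TKO against wt mice. In TKO against wt mice *Hnrnpd* was at −0.37 and 0.45 and *Tial1* at 0.032 and −0.30. Between TKO and Zmat3-/- mice *Khsrp* was at −0.12 and 0.35, *Elavl1* at −0.0523 and 0.24, *Zfp36l1* at −0.0437 and 0.25 and *Zfp36l2* at −0.0935 and 0.20.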

How the results depend on the processing

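Of 754 log2FC values of named genes under the alternatives, 645 kept their direction and side of an adjusted p of 0.05, 42 lost and 19 gained a call, and 48 changed sign. All 30 group levels moved by less than the SD with DESeq2's size factors. Causes were not tested. *Zfp36l2* stayed above wt throughout, at 1.09 to 1.78 in TKO and 1.18 to 1.58 in Zmat3-/- mice. The splits by *Xist* were chosen after seeing the data; with high *Xist* TKO is 1 mouse, assumed to vary like the others. The depth of 17669715 counts limits TKO mouse 2.

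The 32 genes called at the study's thresholds in TKO against wt mice became 103 with DESeq2, 51 with no filter on low counts, 68 with all 3 genotypes in one fit, 16 with the replicate block, 176 with 1 surrogate variable, 521 with high and 120 with low *Xist*, and 15 to 35 with 1 mouse left out, fewest, with 15 each, without TKO mouse 1 or 2. The 43 in Zmat3-/- against wt mice became 123, 73 in one fit, 8 with the block, 215 with the surrogate variable, 516 with high and 279 with low *Xist*, and 12 to 47 with 1 mouse left out, fewest, with 12 each, without Zmat3-/- mouse 1 or 4. The 16 between the mutants became 45 with no filter and 46 with high *Xist*. At any fold DESeq2 called 381, 1085 and 73 genes, against 39, 103 and 29.

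Of the 10 genes, the study's thresholds called 0 instead of 1 in TKO against wt mice with the replicate block, with *Xist* level in the fit or with high *Xist*, and 0 to 1 with 1 mouse left out; in Zmat3-/- against wt mice they called 1 instead of 0 with low *Xist*. At any fold the 1 called in TKO against wt mice became 0 with the block, 4 with the surrogate variable, 3 with high and 3 with low *Xist*, and 0 to 1 with 1 mouse left out. The 1 called in Zmat3-/- against wt mice became 0 with the block, 6 with the surrogate variable, 5 with high and 6 with low *Xist*. Calls over all genes changed as well: with the block, the surrogate variable, high and low *Xist*, an adjusted p under 0.05 was reached by 0.123%, 17.9%, 16.1% and 2.87% of genes in TKO and by 0.0889%, 37.8%, 44.3% and 27.8% in Zmat3-/- against wt mice.

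Signs changed in these values. In TKO against wt mice, high *Xist* gave −0.0155 for *Zc3h12a*, −0.34 for *Hnrnpd*, −0.0598 for *Khsrp*, 0.879 for *Tia1* and 0.0649 for *Tial1*, and the block −0.064 for *Hnrnpd* and 0.258 for *Tia1*. Leaving out 1 mouse gave −0.0414 to 0.215 for *Zc3h12a*, −0.119 to 0.176 for *Hnrnpd*, −0.0522 to 0.136 for *Khsrp* and −0.392 to 0.0963 for *Tia1*. In Zmat3-/- against wt mice *Zc3h12a* was at −0.00256 with no filter, −0.00473 in one fit, −0.0178 with the surrogate variable and −0.104 with low *Xist*, and *Rc3h1* at −0.0669 with low *Xist*. High *Xist* gave −0.143 for *Hnrnpd*, 0.0512 for *Khsrp* and 0.703 for *Tia1*, and the block 0.0273 for *Tia1*. Leaving out 1 mouse gave −0.0504 to 0.0882 for *Zc3h12a*, −0.0252 to 0.226 for *Hnrnpd* and −0.385 to 0.101 for *Tia1*. Between the mutants, high *Xist* gave −0.0336 for *Zfp36l1*, −0.0824 for *Zfp36l2*, −0.128 for *Zc3h12a*, −0.0421 for *Elavl1*, −0.109 for *Khsrp* and 0.179 for *Tia1*. Low *Xist* gave 0.0452 for *Zfp36*, 0.0281 for *Hnrnpd* and −0.00213 for *Tial1*. *Tia1* was at 0.00711 with no filter and 0.00302 with the block, and leaving out 1 mouse gave −0.0412 to 0.18 for *Zc3h12a*, −0.172 to 0.023 for *Hnrnpd* and −0.0982 to 0.104 for *Tia1*.

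Same-numbered mice correlated in their deviations at 0.0734 to 0.405 in TKO and wt mice and at 0.0102 to 0.195 in the mutants. The first range reaches above that of Zmat3-/- and wt mice, so the values do not settle whether the numbers pair these mice. With the block *Zfp36l2* was at 1.52 in TKO against wt mice, and adjusted p-values of *Tob1*, *Dusp1*, *Plk2*, *Fosb*, *Klf4* and *Nr4a2* were 0.0753 to 0.141 from edgeR. In TKO against wt mice *Fosb* lost its call without TKO mouse 1 or 3, *Klf4* without TKO mouse 1 and *Nr4a2* without TKO mouse 1 or 2.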
